A study of Arabidopsis thaliana with 12 samples.

Results

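The genes described here are APS4 (AT5G43780), CYN (AT3G23490) and AT1G31220 of Arabidopsis thaliana, each measured by 1 probe of a 3439-probe array. They encode an ATP sulfurylase, a cyanase and a formyltransferase of purine synthesis. The 3 probes are those that list exactly 1 gene, that gene being one of the 3, among 692 probes that list 1 gene. The genes were chosen by values of these same samples, including the difference between psak and wild type in earlier results, so that difference is described here and no p-value is given for it.

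Total RNA of 6 WT samples was compared with that of 6 samples of the mutant psak, which does not contain the photosystem I protein PSI-K. Both groups are of ecotype Columbia 0, and the genotype is the only difference between them that the labels give. PSAK, the gene of that protein, was not analysed here, as the gene table used lists no probe for it alone, and the labels were not checked by its level. The allele, tissue, age and growth conditions of the plants are not given in the sources used here, nor is it stated whether the 6 samples of a genotype came from separate plants. In bulk RNA of this kind, fewer cells of a type and less RNA per cell cannot be told apart.

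ATP sulfurylase activates sulfate by joining it to ATP, which forms adenosine phosphosulfate, the entry point for the synthesis of cysteine, methionine and glutathione and for the sulfation of other compounds. Most of this route runs in plastids, where the electrons for the reduction of sulfite come from ferredoxin, an acceptor of photosystem I. Cyanase combines cyanate with bicarbonate and releases ammonia and carbon dioxide, and so removes a toxic by-product of metabolism. Glycinamide ribonucleotide formyltransferase, the activity annotated to AT1G31220, adds a formyl group carried by folate to an early intermediate of the purine ring.

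Each sample holds 1 deposited intensity per probe, on a linear scale that runs from 0 to 100. All 3 probes were above 0 in all 12 samples. By mean intensity the probe of CYN stood at the 91st percentile of the array, that of APS4 at the 62.5th and that of AT1G31220 at the 42.6th, which describes how bright the probes are and not how abundant the transcripts are. The sum of intensities was 2967 to 3460 per sample. Samples 5 and 6 of psak stood apart. Their medians were 0.160 and 0.150, against 0.242 to 0.355 in the other 10, and 18.1% and 19.4% of their probes were at exactly 0, against 13% to 16.5%. Samples numbered 1 and 2, 3 and 4, and 5 and 6 within a genotype were alike over the array (consensus correlation 0.590), so values are also given by these number pairs.

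APS4, the sulfate-activating enzyme, was dimmer in psak. Its intensities in WT samples 1 to 6 were 0.456, 0.685, 0.455, 0.526, 0.592 and 0.615. In psak samples 1 to 6 they were 0.161, 0.442, 0.198, 0.267, 0.230 and 0.240. All 6 psak samples lay below all 6 WT samples, but psak sample 2, at 0.442, was close to the lowest WT samples and far from the other 5 mutant samples, which did not exceed 0.267. The psak mean was 0.462 times the WT mean. On the scale used for the array-wide fit, log2 intensity after quantile normalization, the difference was -1.12 ± 0.29 (SE, 6 against 6 samples). This SE, like the others given here unless stated, takes the 6 samples of a genotype as independent. With number pairs as a random block in the fit, the SE was 0.47.

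The APS4 difference was present in each number pair on both scales. Before normalization, psak over WT was 0.528 in numbers 1-2, 0.474 in numbers 3-4 and 0.389 in numbers 5-6. After quantile normalization the log2 differences were -1.41, -1.44 and -0.52. Normalization thus changed which pair differed most: numbers 5-6 had the strongest difference as deposited and the weakest after it. The median intensity was lower in psak samples 5 and 6, though their sums (3119 and 3112) lay within the range of the other samples, and normalization moved the APS4 values of these samples up relative to the other psak samples. Without psak samples 5 and 6 the normalized log2 difference was -1.35 ± 0.27.

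APS4 varied more among psak than among WT samples on the normalized log2 scale. As deposited, APS4 had close SDs, 0.0922 in WT and 0.0979 in psak, with coefficients of variation of 16.6% and 38.2%. Its normalized log2 values had an SD of 0.194 over the 6 WT samples and of 0.702 over the 6 mutant samples, whereas the medians of this SD over the 2358 probes above 0 in all samples were 0.335 and 0.424. Much of the psak spread lay inside a single number pair, because psak samples 1 and 2 stood at -3.05 and -1.45. The mean difference between samples of the same number pair was 0.738 in psak, against 0.857 between samples of different pairs. In WT it was 0.254 against 0.205. For this gene samples of the same number pair were thus slightly more alike than others in psak and slightly less alike in WT. The pairs of psak were not uniform, as samples 5 and 6 were close, at -1.54 and -1.45.

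CYN, the cyanase, was brighter in psak. Its intensities in WT samples 1 to 6 were 1.27, 1.05, 0.839, 0.744, 0.956 and 0.826. In psak samples 1 to 6 they were 1.78, 1.43, 1.59, 1.46, 2.28 and 2.07. The lowest psak sample lay above the highest WT sample, and psak samples 5 and 6 were the highest of all although their array medians were the lowest. The psak mean was 1.87 times the WT mean, with a coefficient of variation of 20.1% in WT and 19.4% in psak.

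The normalized log2 difference of CYN was 1.17 ± 0.17 (SE), or ± 0.22 with number pairs as a random block. With the values as deposited it was 0.90 ± 0.19. By number pair, psak over WT was 1.39 in numbers 1-2, 1.93 in numbers 3-4 and 2.44 in numbers 5-6, and the normalized log2 differences were 0.70, 1.21 and 1.61. In each pair both psak samples lay above both WT samples. The pair with the highest ratio was thus the one whose mutant samples had the lowest medians.

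AT1G31220, the formyltransferase of purine synthesis, did not separate the genotypes. Its intensities in WT samples 1 to 6 were 0.147, 0.0450, 0.0564, 0.246, 0.300 and 0.345. In psak samples 1 to 6 they were 0.353, 0.379, 0.347, 0.297, 0.0977 and 0.192. Here 3 psak samples lay above the highest WT sample and 2 WT samples below the lowest psak sample, and the remaining values overlapped. After normalization 4 psak samples lay above the highest WT sample. The WT mean was 0.190 ± 0.126 (SD, n = 6) and the psak mean 0.278 ± 0.110. The normalized log2 difference was 0.82 ± 0.42 (SE), smaller than the SD of 1.05 among WT samples.

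**Figure D1:**
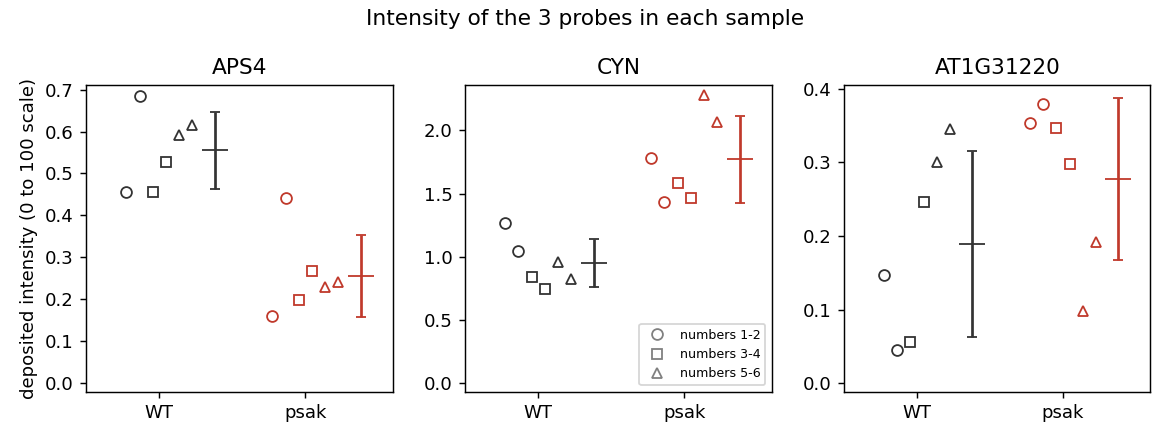
Deposited intensity (vertical axis, linear scale) of the APS4, CYN and AT1G31220 probes in the 6 WT and 6 psak samples, in the order of their numbers, with symbols for number pairs and, to the right of each group, the mean and SD. The groups do not overlap for APS4 or CYN, whereas for AT1G31220 psak samples 1 to 4 are high and psak samples 5 and 6 fall among the WT values.

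As deposited, the direction of AT1G31220 depended on the sample numbers. In samples 1 to 4 the 4 psak values, 0.297 to 0.379, lay above the 4 WT values, 0.0450 to 0.246. In samples 5 and 6 both psak values lay below both WT values. Psak over WT was 3.82 in numbers 1-2, 2.13 in numbers 3-4 and 0.450 in numbers 5-6. Whether the number pairs differ from each other was not tested.

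High and low values of this probe fell in samples with high and low array medians. The summed intensity was highest in WT samples 1 and 2 (3460 and 3439). In numbers 1-2 the array medians were 0.242 to 0.255 in WT and 0.346 to 0.355 in psak. Numbers 3-4 had medians of 0.249 to 0.260 in WT and 0.332 to 0.340 in psak. In numbers 5-6 the order was turned, with 0.336 to 0.339 in WT and 0.150 to 0.160 in psak. Each of the 6 samples with a median above 0.33 had an AT1G31220 intensity of at least 0.297, and each of the other 6 one of at most 0.246. The order within these other 6 did not follow the median. Psak samples 5 and 6, with the lowest medians, were at 0.0977 and 0.192, above WT samples 2 and 3 at 0.0450 and 0.0564.

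The same signs as in AT1G31220, higher in psak in numbers 1-2 and 3-4 and lower in numbers 5-6, were found in 40.9% of the 2358 probes above 0 in all samples with the values as deposited. After quantile normalization the share was 21.9%. The deposited signs of APS4, lower in all 3 pairs, were those of 24.6% of the probes, and the signs of CYN, higher in all 3, those of 9.54%. After normalization these shares were 23.8% and 19.8%.

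Quantile normalization reduced the AT1G31220 difference within numbers 5-6 from -1.23 to -0.25 on the log2 scale. Within numbers 1-2 it changed from 2.17 to 1.56 and within numbers 3-4 from 1.45 to 1.15. In numbers 5-6 the normalized psak values lay on both sides of the WT values. Psak sample 5, at -2.60, was below WT samples 5 and 6, at -2.02 and -1.80. Psak sample 6, at -1.71, was above both. By rank within each sample, a measure that does not use the intensity scale, the probe stood on average at the 29.2nd percentile in WT and the 52.1st in psak in numbers 1-2, at the 35.4th and 48.8th in numbers 3-4, and at the 48.6th and 47.3rd in numbers 5-6. WT samples 1, 2 and 3 ranked at 36.3, 22.0 and 22.5, below the psak range of 38.3 to 56.2, while WT samples 4 to 6 ranked inside it, at 48.3, 46.0 and 51.1. The part of the array median in the remaining difference was not tested.

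**Figure D2:**
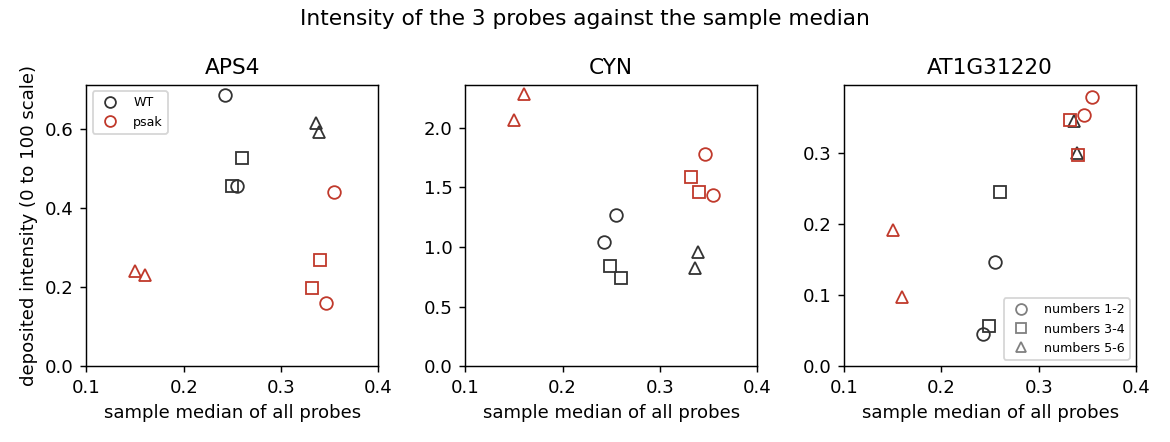
Deposited intensity of each probe (vertical axis) against the median intensity of all 3439 probes in the same sample (horizontal axis), with colours for genotype and symbols for number pairs. AT1G31220 is at 0.297 or more in the 6 samples with medians above 0.33 and at 0.246 or less in the others, while CYN is highest in the 2 psak samples with the lowest medians.

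WT samples 2 and 3 weighed most on AT1G31220. Their normalized log2 values were -4.04 and -4.07, against -1.80 to -2.59 in the other 4 WT samples. Their SD over 6 samples was 1.05 for WT and 0.348 for psak. Without WT sample 2 the log2 difference was 0.56, as it was without WT sample 3.

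**Figure D3:**
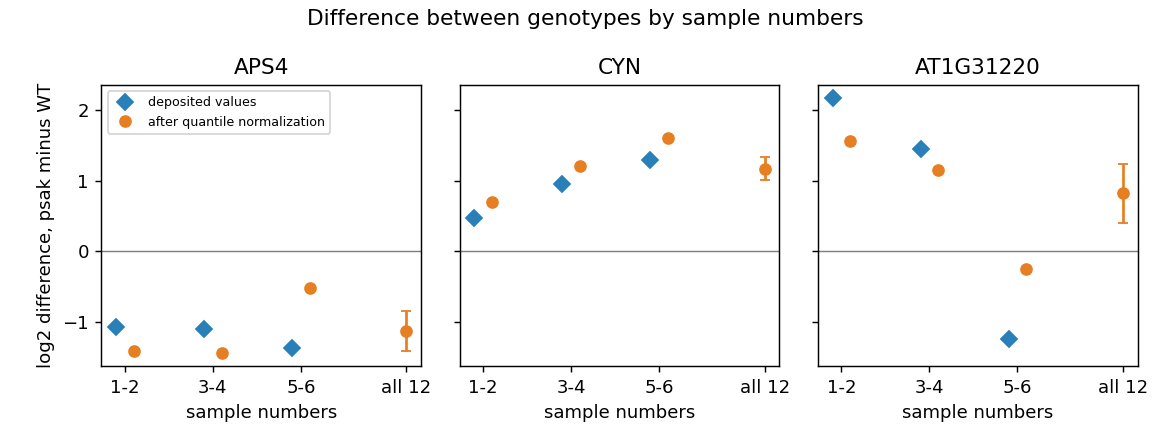
Log2 difference between psak and WT (vertical axis) within sample numbers 1-2, 3-4 and 5-6, for deposited and for quantile-normalized values, and over all 12 samples after normalization with its SE. APS4 is below 0 and CYN above 0 in every pair, while AT1G31220 is above 0 in numbers 1-2 and 3-4 and at -1.23 (deposited) or -0.25 (normalized) in numbers 5-6.

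Because APS4 and CYN differed in opposite directions, their ratio within a sample was also taken. A factor that scales a whole sample cancels in it. A change in the shape of the intensity distribution, such as the low medians at like sums in psak samples 5 and 6, need not cancel. CYN over APS4 was 2.78, 1.53, 1.84, 1.41, 1.61 and 1.34 in WT samples 1 to 6 and 11.1, 3.25, 8.01, 5.48, 9.95 and 8.62 in psak samples 1 to 6. That the psak ratios lie above the WT ratios follows from the separation of both genes and adds no support to it. The nearest values were those of psak sample 2 and WT sample 1. On the log2 scale the WT ratios averaged 0.76 ± 0.38 (SD, n = 6) and the psak ratios 2.84 ± 0.66, which differ by 2.08. The ratio shows that the probes differed unequally between genotypes, not which of them accounts for it.

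In the limma fit over all probes, 444 of 2993 tested probes (14.8%) differed between the genotypes at an adjusted p under 0.05, 8.12% higher in psak and 6.72% lower. CYN was among those higher, APS4 among those lower, and AT1G31220 did not pass. Nothing is read from this count of 2 in 3, because the contrast took part in the choice of the genes. All psak values lay above all WT values in 3.82% of the 2358 probes above 0 in every sample, as for CYN, and below in 9.25%, as for APS4. APS4 did not pass when number pairs entered as a random block, whereas CYN did, and neither passed when each pair was averaged into a single replicate. CYN also missed the threshold when samples were centred on their medians in place of quantile normalization. Because of how the genes were chosen, passing or not in any of these fits is no evidence for either difference and does not rank the 2 genes.

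The other genes of these routes were taken from 4 textbook lists: sulfate uptake, reduction and cysteine, methionine and glutathione synthesis (36 genes); cyanate, bicarbonate and ammonium metabolism (23); purine synthesis (21); and the folate enzymes that supply formyl groups (11). Of these 91 genes, 6 had a probe of their own in the gene table used, the 3 genes above and 3 others, and 5 had only probes shared with other genes, which are not named here. None of the 3 others passed the limma test in either direction (0 of 3, and 0 of 3 at an unadjusted p under 0.05), against 14.8% of all tested probes. Their median log2 difference was 0.03, that of all tested probes -0.003. The other ATP sulfurylases (APS1, APS2 and APS3), the adenosine phosphosulfate reductases and the carbonic anhydrases, which make the bicarbonate that cyanase uses, were not analysed here.

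CBL, the cystathionine beta-lyase of methionine synthesis, was the other sulfur gene. Its intensities were 0.00854, 0.256, 0, 0.195, 0.0959 and 0.0630 in WT samples 1 to 6 and 0.135, 0.0272, 0.238, 0.0397, 0.0845 and 0.141 in psak. The groups overlapped over nearly their whole range and the probe is dim, at the 23rd percentile of the array. The log2 difference over the 11 samples above 0 was 0.20 ± 0.88 (SE; limma adjusted p = 0.908).

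The purine list held AT2G35390 and AT2G44530, both annotated as synthetases of phosphoribosyl pyrophosphate, the sugar on which the purine ring is built. AT2G35390 was at 0.574 to 0.703 in WT with a mean of 0.614 ± 0.0474 (SD, n = 6). In psak it was at 0.564 to 0.699 in samples 1 to 5 and at 0.212 in sample 6. Its log2 difference was 0.03 ± 0.21 (limma adjusted p = 0.939). AT2G44530 was at 0 in WT sample 3 and at 0.201 to 0.324 in the other 5 WT samples, and at 0.133 to 0.337 in psak. Its log2 difference, with WT sample 3 left out as a zero, was -0.30 ± 0.35 (limma adjusted p = 0.596).

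**Figure D4:**
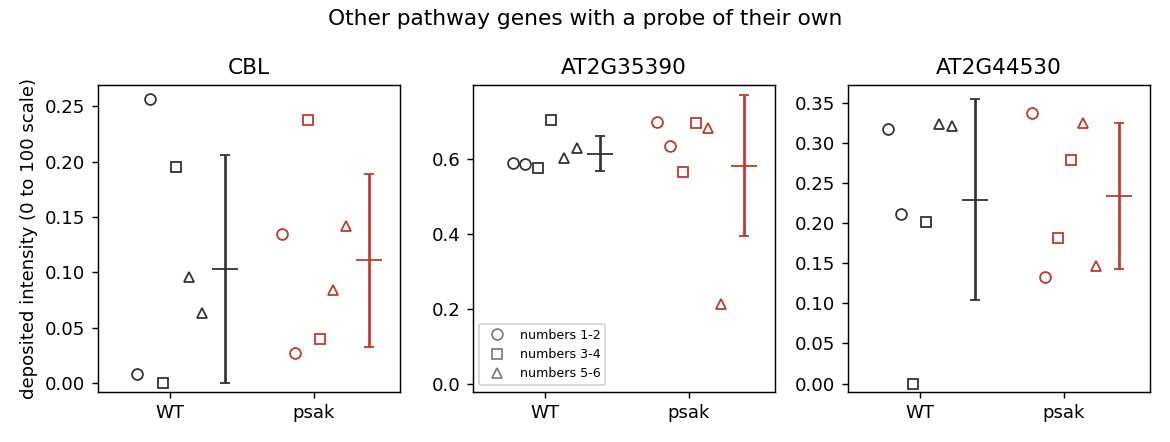
Deposited intensity (vertical axis) of CBL, AT2G35390 and AT2G44530 in the 6 WT and 6 psak samples, with symbols for number pairs and the mean and SD beside each group. The WT and psak values overlap in all 3 genes, and psak sample 6 is low for AT2G35390 at 0.212.

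Likeness of pattern was measured as Pearson's r of normalized log2 values over the 12 samples, against 473 other single-gene probes above 0 in all samples. Such probes share the arrays, the normalization and the genotype difference, so r is a description. For APS4 the highest r were 0.93 with AT4G32340, 0.92 with DI21, a drought-inducible gene, and 0.88 with AT5G22340. In all 3, as in APS4, every psak sample lay below every WT sample in deposited intensity. On the normalized scale used for r, that separation held for APS4 and DI21 only. There AT4G32340 stood at -0.38 and -0.31 in psak samples 5 and 6, above -0.45 in WT sample 1. AT5G22340 stood at -0.551 in psak sample 6, just above -0.553 in WT sample 2. Neither AT4G32340 nor AT5G22340 passed in the limma fit (adjusted p = 0.118 and 0.083). The likeness did not rest on the genotype means alone, since r after subtraction of each genotype mean was 0.91, 0.79 and 0.72. After normalization AT4G32340 shared with APS4 the low psak sample 1 and the higher psak samples 2, 5 and 6. As deposited, psak samples 5 and 6 were high in AT4G32340 (0.639 and 0.679) but not in APS4 (0.230 and 0.240, below 0.267 in psak sample 4). After that subtraction AT5G44000 also came among the first 3, with r = 0.84.

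For CYN the highest r were 0.94 with AT3G26630, 0.88 with AT3G06570 and 0.88 with AT5G19210, all of them higher in every psak sample than in any WT sample as deposited. Here the likeness lay mostly in the genotype difference, since after subtraction of the genotype means r was 0.34, 0.05 and 0.32. The probes most like CYN after that subtraction were those of AT2G04700 (r = 0.87), AT4G02580 (0.80) and AT1G31790 (0.74), and their WT and psak values overlapped. Before the subtraction their r with CYN was 0.75, 0.08 and -0.41. Their log2 differences were 0.92, -0.49 and -0.69 (limma adjusted p = 0.200, 0.624 and 0.080). AT4G02580 and AT1G31790 were thus lower in psak on average, unlike CYN.

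For AT1G31220 the highest r were lower: 0.81 with GH9B11, a member of a glycosyl hydrolase family, and 0.73 with both AT2G40980 and AT4G08630. Only 1 of the 473 probes exceeded 0.8 with this gene, against 13 with APS4 and 10 with CYN. After subtraction of the genotype means the counts over 0.8 were 0 for AT1G31220, 2 for APS4 and 2 for CYN. On those values AT2G30320 led with r = 0.80, followed by GH9B11 (0.79) and AT4G26770 (0.75). WT samples 2 and 3 were low in GH9B11 too, as in AT1G31220.

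**Figure D5:**
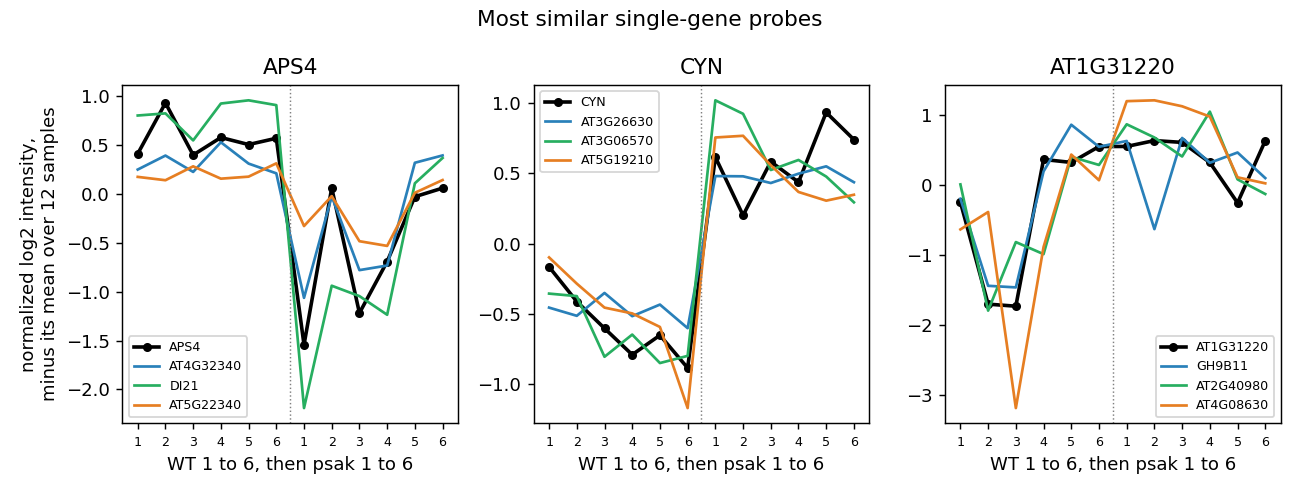
Normalized log2 intensity minus its mean over the 12 samples (vertical axis) for APS4, CYN and AT1G31220 (black, with points) and the 3 single-gene probes with the highest r to each (coloured lines), by sample along the horizontal axis. APS4 and AT4G32340 rise and fall together within psak, whereas the probes most like CYN share mainly its step between the genotypes.

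The 3 genes did not vary together once genotype was set aside. After subtraction of the genotype means, r over 12 samples was 0.03 between APS4 and CYN, -0.16 between APS4 and AT1G31220 and -0.45 between CYN and AT1G31220. APS4 belongs to a family of similar genes, and whether its probe also binds transcripts of the others was not tested.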

How the data were processed

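The authors deposited 1 intensity per probe and sample for 12 samples. Per the labels, 6 are WT and 6 psak. How they scanned, background-corrected and scaled the arrays or which genome build they used is unknown from the labels and files. For that reason no coordinates are printed. What an intensity of 0 stood for is unknown. Depth is not defined for arrays; the number of samples limits the precision. Probes were named through the platform's gene table and the RefSeq annotation of TAIR10.1 (690 of 692 single-gene probes matched a locus).

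Zeros were treated as missing, other values taken to log2 and quantile normalized. Probes with at least 2 values per genotype were fitted with limma 3.58.1 in R 4.3.3 (lmFit, eBayes, two-sided, no block, Benjamini-Hochberg over 2993 probes). The fit was tested on simulated data. P-values measure only the spread between these samples, which may be technical. Named genes were the 3 members, list genes with a probe of their own, and the 3 most similar probes per member by each of the measures given. Members, lists and tests were chosen with earlier results of these data known. Alternatives were other normalizations, an offset of 0.0403 before log2, dim-probe filters, blocks, pair means, samples left out, trend and robust variances, and ranks, the last chosen after seeing the data. Plots used Python 3.11.15 with matplotlib 3.10.9.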

Additional observations from a re-analysis of the deposited data

Results flagged for a closer look

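The 21 named probes gave 82 groups of 6 values to search for outliers, as deposited intensity and as normalized log2 value, leaving out groups with a zero on the log2 scale. In 7 of them a single sample was remote: the gap to its neighbour, as a share of the range, was above Dixon's critical value of 0.625. Chance flags about 1 in 20 groups of independent values, and samples of a number pair and the 2 scales of a probe are not independent. APS4 was high in WT sample 2 (ratio 0.663, -0.58 against -0.94 in the nearest WT sample, normalized log2). AT1G31220 was low in psak sample 5 (0.648, -2.60 against -2.02, normalized log2). AT2G35390 was low in psak sample 6 (0.722, 0.212 against 0.564, deposited intensity). AT2G04700 was high in psak sample 5 (0.769, 0.407 against 0.229, deposited intensity). On the normalized log2 scale AT5G44000 was low in WT sample 1 (0.704), AT1G31790 was high in WT sample 1 (0.684) and AT4G08630 was low in WT sample 3 (0.635).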

How the results depend on the processing

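Over 21 alternatives the log2 difference of APS4 ranged from -1.35 to -0.94, that of CYN from 0.90 to 1.26 and that of AT1G31220 from 0.56 to 1.01, with no change of sign. None of the alternatives took numbers 5-6 alone, where the AT1G31220 difference was -1.23 as deposited and -0.25 after normalization. The constant sign therefore does not cover that pair. Only CYN moved by more than the spread between samples, to 0.90 with the values as deposited. Leaving out 1 sample at a time gave -1.26 to -0.94 for APS4, 1.08 to 1.26 for CYN and 0.56 to 1.01 for AT1G31220. By rank, psak minus WT was -23.9 percentage points for APS4, 10.4 for CYN and 11.7 for AT1G31220. Over all probes, 243 were higher and 201 lower in psak. These counts were 146 and 275 with the values as deposited, 164 and 119 with median centring, 99 and 55 with number pairs as a random block, and 524 and 423 without psak samples 5 and 6. With pair means limma called 0, with 465 of 2965 probes at an unadjusted p under 0.05. Leaving out 1 sample gave 180 to 305 higher and 147 to 278 lower. With the sample number as a replicate block, 212 were higher and 220 lower, and the 3 differences were the same. Deviations of same-numbered WT and psak samples correlated at 0.0798 to 0.239. As not every correlation exceeded 0.1, the main fit did not take the numbers as pairs across genotypes. A likeness by number was present all the same, as 5 of 6 WT samples correlated best with their own number. The summed intensities of both genotypes also went by number. They were 3359 to 3460 in samples 1 and 2, 2967 to 3062 in samples 3 and 4, and 3112 to 3149 in samples 5 and 6. What the samples of a number shared was not tested. No list gene passed under any alternative. The cause of these changes was not tested. Probes near 0, such as CBL, carry large errors on a log scale.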
